A study of Mus musculus with 6 samples.

Results

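The mitochondrial ribosomal protein genes were taken as all protein-coding rows of the expression table whose symbol begins with Mrpl or Mrps followed by a digit, which gave 77 of 36976 rows, or 77 of 22380 protein-coding rows. By subunit, 49 of the 77 encode proteins of the large subunit and 26 proteins of the small subunit. Mrps30 and Mrps18a carry small-subunit symbols but belong to the large subunit and were counted there. Mrps36 kept its ribosomal symbol but encodes a subunit of the alpha-ketoglutarate dehydrogenase complex, and Mrps36-ps1, a copy of it that the table lists as protein-coding, was given no subunit. All 77 were measured in long-term (LT) chronic myelogenous leukaemia (CML) stem cells sorted as CD150+CD48-CD135- cells of the Lineage-Sca-1+cKit+ (LSK) population from bone marrow of C57BL/6 mice. Gdpd3 encodes a lysophospholipase D, and the comparison asks how its loss changes gene expression in these cells. The 3 Gdpd3+/+ libraries are numbered 1 to 3 and the 3 Gdpd3-/- libraries 5 to 7. Both genotypes carried SCL-tTA and TRE-BCR-ABL1, in which a haematopoietic stem cell promoter drives a doxycycline-repressed transactivator of BCR-ABL1, and cells were taken 5 weeks after CML was induced by withdrawing doxycycline. The Gdpd3-/- mice came from a genome-edited strain with a 5-base deletion in Gdpd3. RNA came from 22 male and 12 female Gdpd3+/+ mice and from 5 male and 5 female Gdpd3-/- mice, so animals were pooled. The samples of a genotype were described as biologically independent, but how the mice were divided among them was not given in the sources used here, and the p-values measure the spread between these libraries.

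The mitochondrial ribosome translates the few messages of the mitochondrial genome, all of them for membrane subunits of the respiratory chain and ATP synthase. Its ribosomal RNAs come from the mitochondrial genome, whereas all of its proteins are encoded in the nucleus, made on cytosolic ribosomes and imported. Many of the proteins have a counterpart in the bacterial ribosome, and the others are found only in mitochondria. Quiescent haematopoietic stem cells keep respiration low, and CML stem cells have been described as depending on it more.

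The members are scattered over 17 chromosomes, with 10 on chromosome 11 and 9 on chromosome 17. Promoters of such nuclear genes for mitochondrial proteins are known to carry sites for NRF1, for ETS-family factors such as GABP and for YY1. The stretches shown are the 160 bases before the RefSeq start (GRCm38.p6, read along the gene) of the 4 members that passed the test between genotypes and of the 2 others with the largest log2 fold change. Capitals mark the letters of the NRF1 motif (GCGC, any 1 base, then TGCGC) or the ETS motif (CCGGAAG), each searched on both strands.
Mrps16, chr14:20393491-20393650, minus strand: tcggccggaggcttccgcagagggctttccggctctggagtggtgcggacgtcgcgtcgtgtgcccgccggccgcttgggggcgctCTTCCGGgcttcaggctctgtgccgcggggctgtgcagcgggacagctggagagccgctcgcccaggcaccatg
Mrpl34, chr8:71464766-71464925, plus strand: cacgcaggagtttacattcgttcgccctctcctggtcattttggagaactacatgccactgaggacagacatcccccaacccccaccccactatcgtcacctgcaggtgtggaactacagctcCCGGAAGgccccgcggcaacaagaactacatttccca
Mrps21, chr3:95871515-95871674, minus strand: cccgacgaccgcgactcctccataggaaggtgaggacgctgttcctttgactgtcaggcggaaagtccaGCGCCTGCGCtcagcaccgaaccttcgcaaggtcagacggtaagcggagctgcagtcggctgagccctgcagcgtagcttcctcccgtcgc
Mrps6, chr16:92058176-92058335, plus strand: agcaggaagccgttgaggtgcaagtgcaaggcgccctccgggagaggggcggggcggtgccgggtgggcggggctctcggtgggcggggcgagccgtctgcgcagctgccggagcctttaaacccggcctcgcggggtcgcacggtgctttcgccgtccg
Mrps33, chr6:39810937-39811096, minus strand: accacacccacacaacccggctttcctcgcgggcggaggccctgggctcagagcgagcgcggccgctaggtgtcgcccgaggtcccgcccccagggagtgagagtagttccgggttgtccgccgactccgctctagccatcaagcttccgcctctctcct
Mrpl42, chr10:95501950-95502109, minus strand: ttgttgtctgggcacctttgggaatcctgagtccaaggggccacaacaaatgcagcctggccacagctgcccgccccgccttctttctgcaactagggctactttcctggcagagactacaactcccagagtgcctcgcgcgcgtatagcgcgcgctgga
For Mrps16, which has 2 RefSeq starts, the stretch shown was chosen as the one with more motif matches, or the first if equal. The ETS letters stood in the stretches of Mrps16 and Mrpl34, and the NRF1 letters in that of Mrps21. No match to either motif or to the YY1 motif (ATGGCGGC) was found in the stretches of Mrps6, Mrps33 and Mrpl42, which says only that these letters are absent there. In the longer windows described next, Mrps33 and Mrps21 also held an ETS match, and Mrps6 and Mrpl42 held none of these motifs.

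Over whole windows, from 250 bases before to 50 bases after a start, 67 of the 77 members had an entry, with 73 windows between them. A match to at least 1 of the 3 motifs was found in 53.4% of these windows, against 32.3% of the 7316 windows of other protein-coding genes with a mean of at least 5 FPKM and 18.6% of the 21190 windows of all other protein-coding genes. The ETS motif was found in 32.9% of member windows, against 19.98% and 11.5%. The NRF1 motif was found in 16.4%, against 11.3% and 6.34%. The YY1 motif was also found in 16.4%, against 5.40% and 2.97%. None of the 3 motifs contains another, and a window could hold more than 1 of them. By motif, the median log2 fold change was 0.46 for the 24 members with an ETS match and 0.34 for the 43 without, 0.33 for the 12 with an NRF1 match and 0.36 for the 55 without, and 0.33 and 0.36 for the 12 and 55 members with and without a YY1 match.

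**Figure D1:**
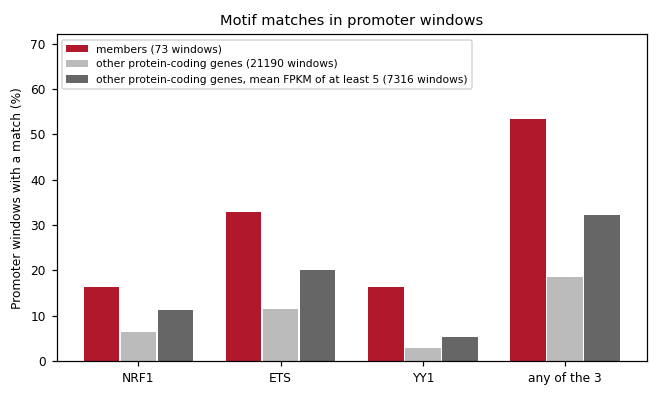
Share of promoter windows (vertical axis, percent) that hold the NRF1, ETS or YY1 letters or any of the 3, for the members and for 2 sets of other protein-coding genes. The bars of the members are the highest in each of the 4 groups, at 53.4% for any motif.

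The libraries differed between genotypes in ways that reach beyond the members. Depth was 49753146 to 62762437 assigned fragments in Gdpd3+/+ and 21334716 to 36421439 in Gdpd3-/-, and the fewest fragments behind any member in any library was 302. FPKM of Gdpd3 was 7.30, 3.29 and 2.95 in Gdpd3+/+ and 0.110, 0.0129 and 0.681 in Gdpd3-/- (log2 fold change -4.00 ± 0.77 (SE), adjusted p = 0.0588, limma). Immunoglobulin genes took 12.2 to 13.3% of fragments in Gdpd3+/+ and 3.78 to 6.45% in Gdpd3-/-. The summed FPKM of 7 neutrophil genes was 28496 to 31433 in Gdpd3+/+ and 7799 to 13415 in Gdpd3-/-, and all 7 were lower in every Gdpd3-/- library. All 15 skeletal muscle genes were higher in every Gdpd3-/- library, with summed FPKM of 1101 to 1656 in Gdpd3+/+ and of 14357, 20658 and 2722 in Gdpd3-/- libraries 5, 6 and 7. Kit, Ly6a and Slamf1, the positive markers of the gate, were present in both genotypes (summed FPKM 477 to 551 and 481 to 677), with Slamf1 (CD150) at 5.41 to 13.2 FPKM. Of the genes the gate was to exclude, Flt3 (CD135) had 11.01, 10.6 and 9.80 FPKM in Gdpd3+/+ and 46.5, 37.8 and 36.8 in Gdpd3-/- and rose (log2 fold change 1.93 ± 0.13 (SE), adjusted p = 0.00562, limma). Cd48 had 39.8 to 44.8 FPKM against 51.6 to 92.2, above Slamf1 in every library, and Itgam had 19.3 to 22.3 against 1.69 to 13.4, with no overlap between genotypes for either gene. Ly6g had 19.0 to 44.2 against 23.6 to 40.6 and Cd4 0.516 to 1.09 against 0.315 to 2.31, both with overlap. Cd8a was at most 0.0012 FPKM in any library. The part of these differences in the results was not tested. In such bulk libraries, fewer cells of one type and less RNA per cell cannot be told apart.

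Mitochondrial ribosomal protein mRNAs were higher in the Gdpd3-/- libraries. Their summed FPKM was 2469, 2586 and 2489 in Gdpd3+/+ and 3682, 4142 and 3176 in Gdpd3-/-, and they took 0.394 to 0.413% of fragments in Gdpd3+/+ and 0.546%, 0.612% and 0.490% in Gdpd3-/-. The groups did not overlap in either measure. The log2 fold change (Gdpd3-/- against Gdpd3+/+, on log2(FPKM + 0.1)) was above 0 for 71 of 77 members, where 65.1% of all 24689 genes tested and 59.8% of protein-coding genes with a mean of at least 5 FPKM were above 0. Its median over the members was 0.36, a fold of 1.28, against 0.24 over all genes tested and 0.094 over the other 8189 protein-coding genes of that level. Single members ranged from -0.29 to 1.22.

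For 53 members, or 68.8%, every Gdpd3-/- value lay above every Gdpd3+/+ value, and for none did every value lie below. Over all genes tested, 23.5% were without overlap in the higher direction and 8.27% in the lower, and over protein-coding genes with a mean of at least 5 FPKM 29.2% and 12.6%. With 3 libraries against 3, a two-sided exact permutation test of 1 gene cannot go below p = 0.1. In limma with Benjamini-Hochberg adjustment over all genes tested, 4 members (5.19%) rose at an adjusted p under 0.05 and none fell, beside 1.09% of all genes that rose and 0.616% that fell. At an unadjusted p under 0.05, 46 members were higher and none lower, beside 16.5% of all genes that were higher and 5.76% that were lower. In limma voom on the recovered fragments, 5 members (6.49%) rose and none fell, beside 2.72% of all genes that rose. The 4 members that rose were Mrps16, Mrps6, Mrpl34 and Mrps33.

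These counts moved with the libraries. Without Gdpd3-/- library 7, 33 members passed the test (42.9%, against 9.83% of all genes higher). Without Gdpd3-/- libraries 5 and 6, which had the most skeletal muscle transcripts, 10 passed (12.99%, against 8.42%), with a member median of 0.29 against 0.22 over all genes. That fit had library 7 as its only Gdpd3-/- library. Its spread came from Gdpd3+/+ alone, so its calls did not measure the spread within Gdpd3-/- and are not those of a replicated test. Without Gdpd3-/- library 5 or any single Gdpd3+/+ library, 0 members passed in limma (32 to 43 were higher at an unadjusted p under 0.05). In the same fits few genes of the whole table passed in either direction, 187 without library 5 and 0, 1 and 21 without Gdpd3+/+ libraries 1, 2 and 3, so these counts of 0 are not particular to the members.

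**Figure D2:**
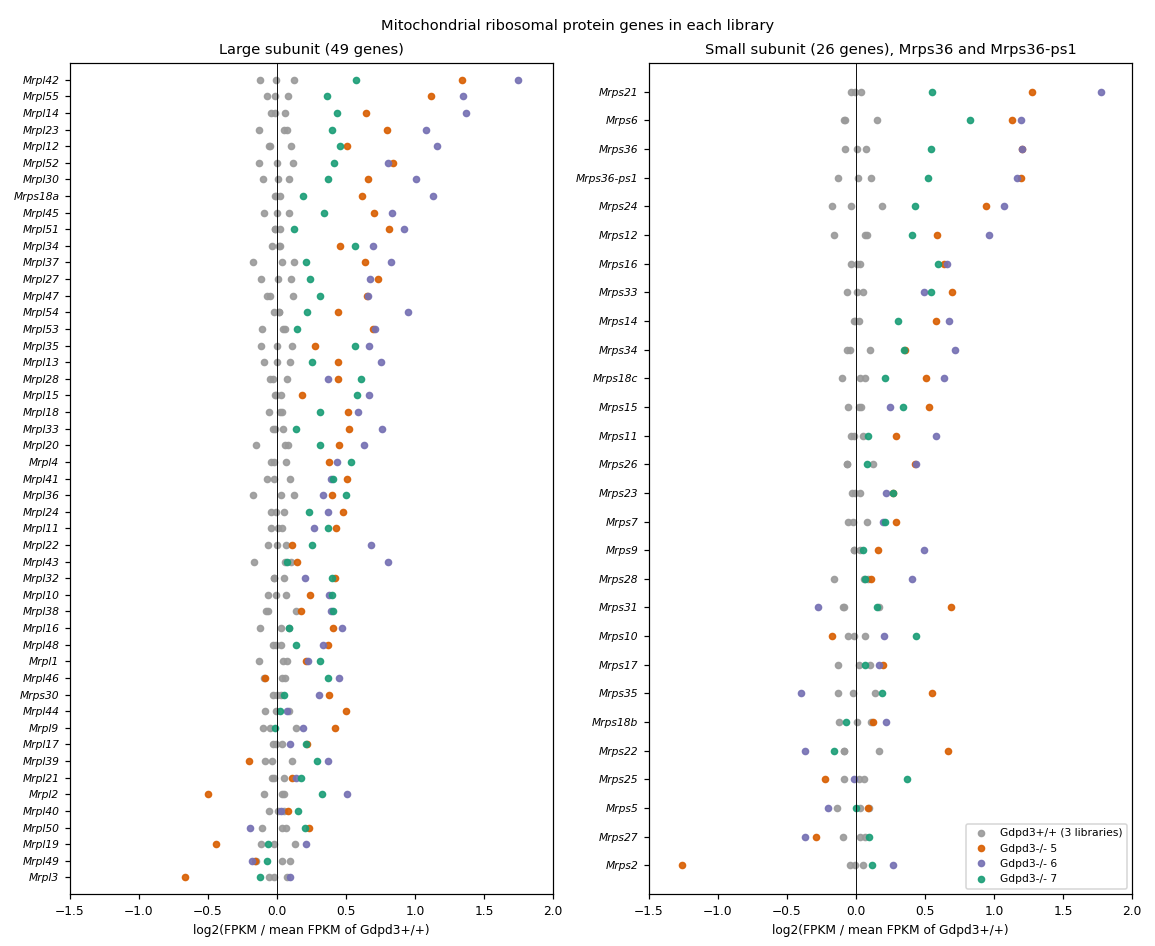
Each member's FPKM in each library as a log2 ratio to its mean in Gdpd3+/+ (horizontal axis). Members are sorted by log2 fold change, with the large subunit on the left. On the right are the small subunit and, outside it, Mrps36 and Mrps36-ps1. Grey points are the 3 Gdpd3+/+ libraries and coloured points the Gdpd3-/- libraries, which lie to the right of all grey points for 53 of the 77 members.

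As deposited, each Gdpd3-/- library alone showed the shift. Under TMM scaling, described below, library 7 alone had a member median log2 fold change of 0.076, against 0.024 over all genes. In the deposited values, against the Gdpd3+/+ mean, the median log2 ratio of the members was 0.43, 0.47 and 0.29 in libraries 5, 6 and 7, beside 0.089, 0.066 and 0.16 for protein-coding genes with a mean of at least 5 FPKM. In these libraries 66, 67 and 63 members lay above all 3 Gdpd3+/+ values, and 9, 7 and 2 lay below all of them. Over all genes tested, 50.8%, 47.5% and 53.5% lay above and 27.9%, 31.4% and 18% below. Library 6 held the highest Gdpd3-/- value for 43 of 77 members and library 7 for 12, whereas among other protein-coding genes library 7 was highest most often, for 38.4%. The order of the summed member level, library 6 over 5 over 7, was also the order of the skeletal muscle sums given above, whose part in the shift was not tested. The members kept their order of level across libraries, with a Pearson correlation over the 77 members' log2 levels of 0.991 to 0.993 between Gdpd3+/+ libraries, 0.945 to 0.950 between Gdpd3-/- libraries and 0.928 to 0.984 between genotypes, all points of a library sharing its preparation and depth. The spread between libraries was wider in Gdpd3-/-, where the SD exceeded that of Gdpd3+/+ for 71 of 77 members and the median coefficient of variation was 15.9%, against 5.84%.

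The 4 members that passed the test each have a plain separation of the genotypes. Mrps16 encodes the counterpart of bacterial S16 in the small subunit and lies on chromosome 14 (mm9, chr14:21210453-21212777). Its FPKM was 70.7, 74.1 and 72.8 in Gdpd3+/+ and 113, 114 and 109.6 in Gdpd3-/- (log2 fold change 0.63 ± 0.08 (SE), adjusted p = 0.0275, limma). The 3 Gdpd3-/- values lay within a narrow band, and library 7 was close to the others. Mrps6, counterpart of the bacterial protein that pairs with S18, had FPKM of 12.9, 15.2 and 13.01 in Gdpd3+/+ and 30.1, 31.4 and 24.3 in Gdpd3-/- (log2 fold change 1.05 ± 0.14 (SE), adjusted p = 0.0315, limma). It lies at chr16:92058515-92112472 and shares 43.8% of its exon bases with Slc5a3 on the same strand, a myo-inositol transporter gene whose own FPKM was 0.535 to 0.848 in Gdpd3+/+ and 1.08 to 1.26 in Gdpd3-/-.

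Mrpl34, counterpart of the short basic bacterial protein L34, had FPKM of 67.4, 70.1 and 70.2 in Gdpd3+/+ and 95.1, 112 and 102 in Gdpd3-/- (log2 fold change 0.57 ± 0.09 (SE), adjusted p = 0.0469, limma; chr8:73988825-73989651). Mrps33, a small-subunit protein found only in mitochondria, had FPKM of 42.0, 40.0 and 43.3 in Gdpd3+/+ and 67.7, 58.7 and 60.7 in Gdpd3-/- (log2 fold change 0.58 ± 0.10 (SE), adjusted p = 0.0475, limma; chr6:39751803-39760987). In both genes each Gdpd3-/- value exceeded the highest Gdpd3+/+ value. Mrps6 alone passed under TMM scaling, which divides each library by a factor from the trimmed mean of gene ratios, with an adjusted p of 0.0449 beside 0.474% of all genes higher, and alone under quantile normalisation, with 0.0400 beside 0.482%. Mrps16 then stood at 0.0676 and 0.0589.

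Besides Mrps6, the largest log2 fold changes belonged to Mrpl42, Mrps21, Mrps36, Mrps36-ps1 and Mrpl55, in all of which Gdpd3-/- libraries 5 and 6 stood well above library 7. Mrpl42, a large-subunit protein found only in mitochondria and the most abundant member, had FPKM of 182, 166 and 154 in Gdpd3+/+ and 424, 560.0 and 249 in Gdpd3-/- (log2 fold change 1.22 ± 0.28 (SE), adjusted p = 0.0818, limma). Mrps21, counterpart of bacterial S21, had 34.3, 36.1 and 35.0 in Gdpd3+/+ and 85.2, 120.5 and 51.4 in Gdpd3-/- (1.20 ± 0.29, adjusted p = 0.0867, limma). Mrpl55, a large-subunit protein, had 37.8, 40.4 and 36.4 in Gdpd3+/+ and 82.8, 97.1 and 49.0 in Gdpd3-/- (0.94 ± 0.25, adjusted p = 0.0964, limma). In these 3 genes the lowest Gdpd3-/- value, that of library 7, still lay above the highest Gdpd3+/+ value.

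Mrps36, the dehydrogenase subunit, had FPKM of 30.4, 28.6 and 31.8 in Gdpd3+/+ and 69.8, 69.8 and 44.0 in Gdpd3-/- (log2 fold change 0.98 ± 0.19 (SE), adjusted p = 0.0610, limma). Its copy Mrps36-ps1 had 18.0, 15.2 and 16.8 in Gdpd3+/+ and 38.2, 37.4 and 24.0 in Gdpd3-/- (0.96 ± 0.20, adjusted p = 0.0673, limma). Reads of the gene and its copies may be split between them by the counting, so their 2 values are not independent.

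**Figure D3:**
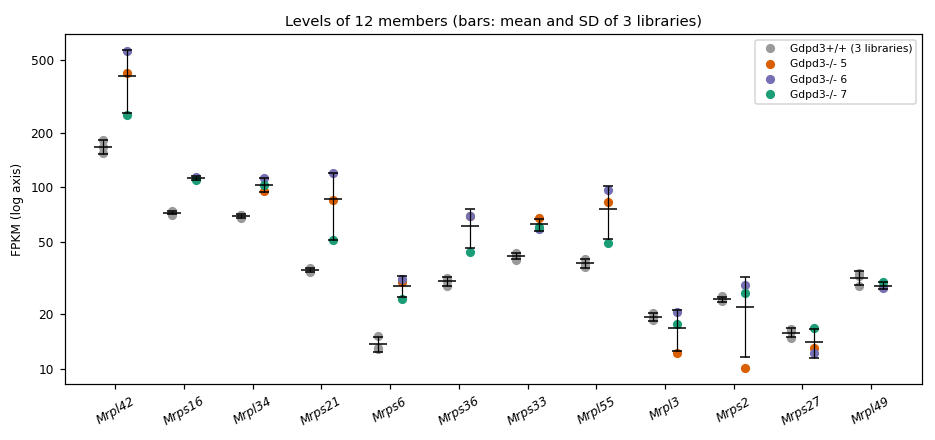
FPKM (log axis) of 12 members in each library, with points for libraries, horizontal bars for the mean and whiskers for the SD of 3 libraries. The 8 genes on the left include the 4 that passed the test and the largest log2 fold changes, and the 4 on the right, Mrpl3, Mrps2, Mrps27 and Mrpl49, had negative log2 fold changes and overlapping groups.

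In the large subunit, 37 of 49 genes lay without overlap in the higher direction and 1 passed the test, and the median log2 fold change was 0.44. Of all genes tested, 23.5% lay without overlap in that direction, 1.09% rose and the median was 0.24. At the stalk that recruits translation factors, Mrpl12, counterpart of bacterial L7/L12, had FPKM of 26.8, 29.9 and 27.0 in Gdpd3+/+ and 39.6, 62.5 and 38.3 in Gdpd3-/- (0.71 ± 0.20, adjusted p = 0.109, limma). Mrpl10, its anchor in the stalk, had 25.4, 24.1 and 23.2 against 28.6, 31.5 and 31.9 (0.34 ± 0.10, adjusted p = 0.120, limma). Neither gene's groups overlapped. Mrpl1, counterpart of the bacterial protein of the other stalk, was among the lowest members at 7.38 to 8.49 FPKM in Gdpd3+/+ and 9.34 to 10.02 in Gdpd3-/-.

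Among large-subunit proteins near the exit tunnel and the membrane, Mrpl45, which holds the ribosome at the inner membrane, had FPKM of 19.5, 18.4 and 17.3 in Gdpd3+/+ and 29.96, 32.8 and 23.4 in Gdpd3-/- (log2 fold change 0.63 ± 0.15 (SE), adjusted p = 0.0867, limma). Mrpl44, which has an RNase III-like fold, had 41.9, 44.9 and 39.8 against 59.6, 44.5 and 42.9, and library 5 alone exceeded the Gdpd3+/+ range. Mrpl41, also described as a partner of Bcl2, had 43.4, 47.0 and 42.0 against 62.8, 58.0 and 58.5 (0.44 ± 0.09, adjusted p = 0.0708, limma), without overlap. Mrpl3, whose bacterial counterpart reaches towards the peptidyl transferase centre, went the other way in value, with 19.0, 20.3 and 18.5 against 12.1, 20.6 and 17.7, and its groups overlapped.

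Of the genes with small-subunit symbols in the large subunit, Mrps18a had FPKM of 13.5, 13.4 and 13.8 in Gdpd3+/+ and 20.8, 29.8 and 15.5 in Gdpd3-/-. Mrps30, also known as programmed cell death protein 9, had 38.1, 39.0 and 37.4 against 49.6, 47.0 and 39.5. Both were without overlap, with library 7 close to the Gdpd3+/+ range, and their adjusted p-values were 0.174 and 0.261 (limma). Mrpl52 and Mrpl36, which with Mrpl42, Mrps16 and Mrpl34 were the 5 most abundant members, had 87.6 to 104 against 127 to 172 and 67.3 to 82.7 against 95.3 to 107. Neither pair of ranges overlapped.

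In the small subunit, 14 of 26 genes lay without overlap in the higher direction, 3 passed the test and the median log2 fold change was 0.24. The same shares of all genes tested were 23.5% and 1.09%, and their median was 0.24. Mrps12, counterpart of the bacterial decoding protein S12, had FPKM of 32.0, 37.5 and 37.9 in Gdpd3+/+ and 53.9, 69.6 and 47.3 in Gdpd3-/- (0.65 ± 0.16, adjusted p = 0.0902, limma). Of the small-subunit paralogues of bacterial S18, Mrps18c had 57.7, 64.9 and 63.2 against 87.8, 96.3 and 71.5 without overlap (0.45 ± 0.13, adjusted p = 0.117, limma), whereas Mrps18b had 16.0, 18.8 and 17.5 against 19.0, 20.3 and 16.5 with overlap. Mrps34, which stabilises the small ribosomal RNA and is mutated in a human mitochondrial disease, had 12.3, 13.7 and 12.4 against 16.4, 21.1 and 16.3. Its groups did not overlap, but 63.4% of its exon bases are shared with Mapk8ip3 on the opposite strand and 37.0% with Nme3 on its own strand.

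The other small-subunit proteins named for their role or level spread in both directions within Gdpd3-/-. Mrps22, mutated in a human mitochondrial disease, had FPKM of 20.6, 24.6 and 20.6 in Gdpd3+/+ and 34.9, 17.0 and 19.7 in Gdpd3-/-, so that library 5 lay above and libraries 6 and 7 below the Gdpd3+/+ range. Mrps10, the lowest member of all, had 6.19, 6.38 and 6.74 against 5.70, 7.41 and 8.70. Mrps25 had 6.98, 7.52 and 7.71 against 6.34, 7.35 and 9.57, and shares 53.7% of its exon bases with Nr2c2 on the opposite strand.

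The 6 members with negative values were Mrps2, Mrpl3, Mrps27, Mrpl49, Mrpl19 and Mrps5, and all 6 overlapped between genotypes. Mrps2, counterpart of bacterial S2, had FPKM of 25.05, 23.5 and 24.1 in Gdpd3+/+ and 10.1, 29.1 and 26.3 in Gdpd3-/- (log2 fold change -0.29 ± 0.39 (SE), adjusted p = 0.659, limma). Its negative value rests on library 5, and without that library the log2 fold change was 0.19. Mrps27, which carries pentatricopeptide repeats that bind RNA, had 16.1, 14.8 and 16.5 against 12.96, 12.2 and 16.9. Mrpl49 had 33.8, 32.5 and 28.5 against 28.3, 27.9 and 30.1. Mrpl19 had 8.96, 10.6 and 9.54 against 7.14, 11.2 and 9.27, and Mrps5 had 8.30, 7.40 and 8.67 against 8.63, 7.07 and 8.11. None of the 6 passed the test, with adjusted p-values of 0.498 (Mrpl49) to 0.901 (Mrps5) in limma. Of 20 fits, 1 called Mrps27 lower, that under TMM scaling without Gdpd3-/- library 7.

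Grouped by ancestry, 36 of the 46 members with a bacterial counterpart lay without overlap in the higher direction (median log2 fold change 0.43), and 15 of the 29 classed as found only in mitochondria (0.28). Mrps18a and Mrps18b were counted with the 29, although their symbols mark them as relatives of bacterial S18. Within the large subunit the counts were 25 of 30 and 12 of 19, with medians of 0.46 and 0.35. Within the small subunit they were 11 of 16 and 3 of 10, with medians of 0.34 and 0.15. The share without overlap in that direction was 23.5% of all genes tested and 29.2% of protein-coding genes with a mean of at least 5 FPKM. The 3 of 10, or 30%, stood near the latter. Under TMM scaling the median of those 10 mitochondrion-specific small-subunit genes was -0.056. These differences between groups of members are descriptions and were not tested. Of the 77 members, 26 share exon bases with another gene of the table, 22 of them with an oppositely transcribed one, and the library kit does not mark strand. A further count took the 58 members that share at most 10% of their exon bases and have no row named as their pseudogene. Pseudogene copies under other names were not searched for. Of these 58, 39 lay without overlap in the higher direction, 3 passed the test and the median was 0.35.

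How far the members stood above Gdpd3+/+ depended on how the libraries were scaled. As deposited, the median over all genes tested was itself 0.24 in favour of Gdpd3-/-. Under TMM scaling it was 0.050 and that of the members 0.15, with 55 members above 0, 31 without overlap in the higher direction (40.3%, against 14.9% of all genes) and 3 in the lower (15% of all genes). Under quantile normalisation it was -0.0063 and that of the members 0.25, with 65 members above 0, 39 without overlap in the higher direction (50.6%, against 13.6%) and 1 in the lower (15.5%). Of all genes that passed the test, 64.0% were higher as deposited, 33.3% under TMM scaling and 36.6% under quantile normalisation. The member median exceeded that of other protein-coding genes of at least 5 FPKM by 0.27 as deposited and by 0.27 under quantile normalisation, while TMM scaling moves all genes of a library alike and so could not change this difference.

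Transcript length moved with the difference. The median summed exon length was 1693 bases for the members and 3173 bases for other protein-coding genes with a mean of at least 5 FPKM, and shorter genes had higher log2 fold changes. Across genes, which are not independent replicates, the Pearson correlation of log2 fold change with log2 length was -0.380 over the 77 members and -0.236 over the 8189 others. Up to 1000 bases the median log2 fold change was 0.53 for 15 members and 0.43 for 635 other genes, and 93.3% and 62.4% lay without overlap in the higher direction. From 1000 to 2000 bases it was 0.45 for 29 members and 0.25 for 1497 others, with 65.5% and 41.8% without overlap. From 2000 to 4000 bases it was 0.27 for 20 members and 0.079 for 3132 others, with 65.0% and 26.1%. Over 4000 bases it was 0.25 for 13 members and -0.027 for 2925 others, with 53.8% and 17.9%. The member median was the higher in each band, and the part of length in the difference between genotypes was not tested.

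**Figure D4:**
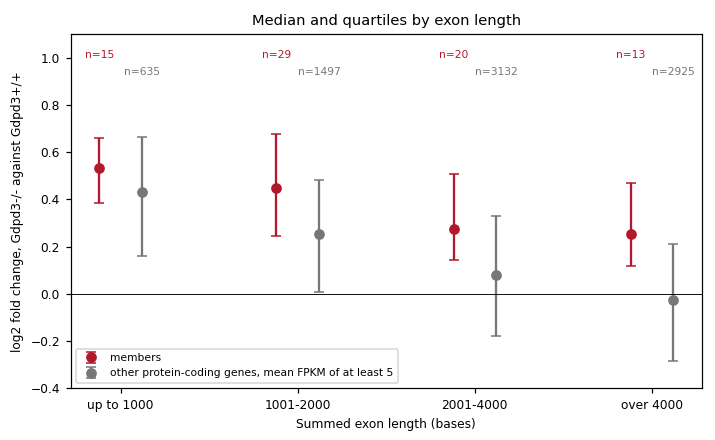
Median log2 fold change with lower and upper quartiles (vertical axis) in 4 bands of summed exon length in bases (horizontal axis), for members (red) and other protein-coding genes with a mean of at least 5 FPKM (grey). The medians fall from 0.53 to 0.25 in the members and from 0.43 to -0.027 in the others.

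Lists of other genes of mitochondrial translation had medians of 0.28 or less. Of all genes tested, 23.5% lay without overlap in the higher direction and 8.27% in the lower. Of 7 mitoribosome proteins with other symbols, 3 lay without overlap in the higher direction and none passed the test, with a median log2 fold change of 0.28 (3 higher at an unadjusted p under 0.05, and 1 changed in limma voom). Chchd1, a small-subunit protein, had FPKM of 67.1, 70.6 and 75.8 in Gdpd3+/+ and 119, 132 and 92.4 in Gdpd3-/-, and Gadd45gip1, a large-subunit protein, had 8.61, 9.90 and 8.67 against 16.7, 18.9 and 13.6. Dap3, a GTP-binding protein of the small subunit, had 10.9, 11.2 and 10.8 against 11.1, 15.9 and 13.4, with overlap. Among 23 rows of assembly factors and enzymes that modify ribosomal RNA, 2 lay without overlap in the higher direction and none in the lower, none passed the test in limma or in limma voom (1 higher at an unadjusted p under 0.05), and the median was 0.067. Among 14 mitochondrial translation factors, 2 lay without overlap in each direction, none passed in limma or in limma voom (1 lower at an unadjusted p under 0.05) and the median was 0.074. The elongation factor Tufm had 41.9, 45.8 and 39.5 against 66.7, 45.8 and 53.0, and the elongation factor Gfm1 had 18.6, 17.0 and 17.0 against 13.1, 14.0 and 13.1. Of the factors that transcribe mitochondrial DNA, 3 were measured, and all 3 overlapped between genotypes.

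Of 3 further lists tied to the members' function, each had a higher median than all genes tested as deposited and under both other scalings. Of 82 cytosolic ribosomal protein genes tested, 10 rose, none fell, 78 lay without overlap in the higher direction and the median log2 fold change was 0.45. Of 93 rows picked by symbol as nuclear genes of the respiratory chain and ATP synthase, none passed the test. The symbols also took in assembly factors such as Ndufaf1, and repeated Ndufb8. In this list 75 lay without overlap in the higher direction and 1 in the lower, with a median of 0.99 (74 higher at an unadjusted p under 0.05, and 2 changed in limma voom). The summed FPKM of the list was 11152 to 11249 in Gdpd3+/+ and 26644, 33372 and 14324 in Gdpd3-/- libraries 5, 6 and 7, the order of the summed skeletal muscle transcripts. The list holds Cox6a2, Cox7a1 and Cox8b, the cytochrome oxidase isoforms of heart and skeletal muscle, which had log2 fold changes of 2.91, 2.69 and 2.90 without passing the test (adjusted p = 0.0831 to 0.0945, limma). Cox8b had FPKM of 140, 98.2 and 85.7 in Gdpd3+/+ and 1202, 1728 and 234 in Gdpd3-/-, and the part of muscle transcripts in the list's median was not tested. Of the 13 protein genes of the mitochondrial genome, none passed, 7 lay without overlap in the higher direction and the median was 0.42 (7 higher at an unadjusted p under 0.05, and 1 changed in limma voom). Under TMM scaling the medians of these 3 lists were 0.24, 0.77 and 0.21, and that of the members 0.15.

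**Figure D5:**
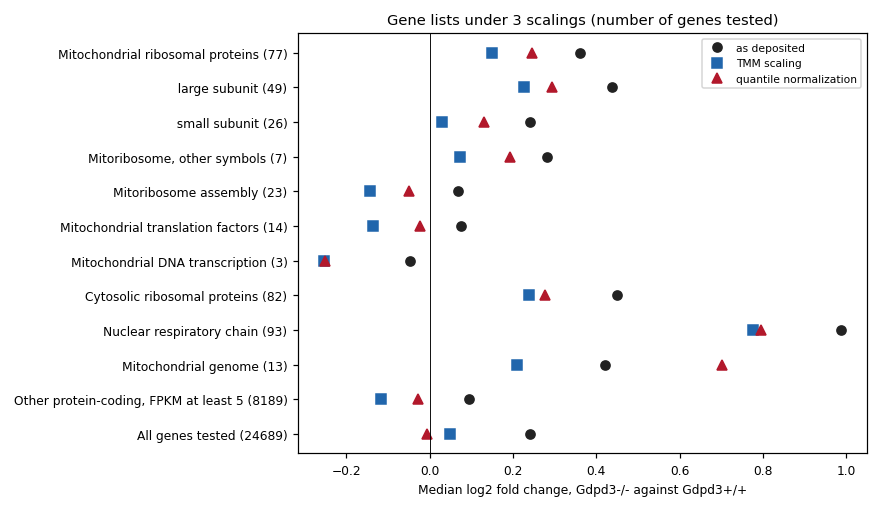
Median log2 fold change (horizontal axis) of the members, their subunits, other gene lists and 2 backgrounds, with the number of genes tested in brackets, as deposited (circles), under TMM scaling (squares) and under quantile normalisation (triangles). The nuclear respiratory chain genes lie farthest to the right at 0.99 as deposited, the members at 0.36, and the mitoribosome assembly list at 0.067.

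In level, per kilobase of exon, the members spanned from 6.44 FPKM (Mrps10) to 167 FPKM (Mrpl42) in Gdpd3+/+, a 25.97-fold range, with a median of 27.9 and quartiles of 15.6 and 41.7. In Gdpd3-/- the span was 7.27 to 411 FPKM for the same 2 genes, a 56.5-fold range, with a median of 35.1 and quartiles of 21.5 and 61.1. No member was listed at 0 in any library. The 5 lowest members were Mrps10, Mrps25, Mrps5, Mrpl1 and Mrpl19, at means over the 6 libraries of 6.85 to 9.45 FPKM, and the groups of 4 of them overlapped between genotypes, the exception being Mrpl1.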

How the data were processed

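Libraries were made from total RNA of sorted cells with the SMART-Seq v4 kit, fragmented by transposase and sequenced as paired reads of 150 bases. The submitters' processing notes name cutadapt 1.16, Trim Galore and Trimmomatic, STAR 2.6.1a, featureCounts 1.6.1 and the mouse build mm9. The authors deposited FPKM per gene and library, which were used as given, and a separate table of their own DESeq2 comparison (base means, fold changes and p-values), which was not used. FPKM times exon length fell on whole steps (100% of values, tolerance 0.001), taken as hundredths of a fragment because steps pile up at 100, and gave the depth and the fragments per gene.

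Genes with a mean of at least 0.05 FPKM (24689) were tested with limma 3.58.1 (R 4.3.3) on log2(FPKM + 0.1) with an intensity trend, genotype as the only term and Benjamini-Hochberg adjustment over all of them at 0.05. Such fold changes understate those of low genes. The test was tried on simulated counts with the same spread in both genotypes, so the wider spread of Gdpd3-/- was not covered. The members, the gene lists and the tests were chosen with earlier results of these data known. Members named are those with an adjusted p under 0.05, the 6 largest rises and falls, the 5 highest and lowest in level, any listed at 0, and 14 with a known role. Alternatives were pseudocounts of 0.01 and 1, no filter and a minimum of 1 FPKM, TMM scaling and quantile normalisation, no trend, array weights and the omission of 1 library at a time. Chosen after seeing the data were limma voom on the fragments, the loss of Gdpd3-/- libraries 5 and 6, pairs of these with TMM scaling, the 58 members with little exon sharing, and bands of exon length. Gene positions are those of mm9 and promoters those of RefSeq on GRCm38.p6, and none were converted. Protein sequences were not used here.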

Additional observations from a re-analysis of the deposited data

How the results depend on the processing

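As deposited, 4 members were higher and 0 lower at an adjusted p under 0.05, 53 lay without overlap in the higher direction and the member median was 0.36. The 4 calls fell to 2 with a pseudocount of 1 or without a filter, to 1 under TMM scaling, quantile normalisation, array weights or voom with TMM scaling, and to 0 without the intensity trend. They rose to 10 without Gdpd3-/- libraries 5 and 6 and to 14 under TMM scaling without library 7, where 1 member, the only lower call in any fit, was lower. Fits without libraries 5 and 6 had library 7 as their only Gdpd3-/- library. Their calls did not measure the spread within Gdpd3-/-, and their counts without overlap rest on library 7 alone. Leaving out 1 library gave 0 to 33 calls, the 33 without Gdpd3-/- library 7. The 53 without overlap in the higher direction and 0 in the lower became 31 and 3 under TMM scaling and 28 and 6 with voom and TMM scaling. They became 44 and 8 under TMM scaling without library 7, and 38 and 21 under TMM scaling without libraries 5 and 6. All genes stood at 14.9% and 15% under TMM scaling, and their shares in the other 3 fits are not given here. The member median of 0.36 became 0.15 under TMM scaling, 0.25 under quantile normalisation, 0.16 with voom and TMM scaling, 0.21 under TMM scaling without library 7 and 0.076 under TMM scaling without libraries 5 and 6. Its excess over the median of all genes, 0.12, became 0.22 at a minimum of 1 FPKM and 0.25 under quantile normalisation. That excess was smaller without Gdpd3-/- libraries 5 and 6, where the member median was 0.29 against 0.22. With TMM scaling as well, the member median was 0.076 against 0.024. Its excess over other protein-coding genes of at least 5 FPKM was 0.12 to 0.36 in all 20 fits, the lowest value without Gdpd3-/- libraries 5 and 6, but TMM scaling, 1 factor per library, could hardly move it.

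Of the 77 members, 41 kept a positive log2 fold change in all 20 fits and 40 were called in none. Named members changed sign as follows. Under TMM scaling Mrpl44 was at -0.012, Mrps10 at -0.056, Mrps18b at -0.12, Mrps22 at -0.16 and Mrps25 at -0.16. Under quantile normalisation Mrps18b was at -0.019, Mrps22 at -0.049, Mrps25 at -0.071 and the median of all genes at -0.0063. With voom Mrps22 was at -0.0043, and with voom and TMM scaling Mrpl44 was at -0.035, Mrps10 at -0.050, Mrps18b at -0.12, Mrps22 at -0.22 and Mrps25 at -0.17. Under TMM scaling without library 7, Mrps10 was at -0.20, Mrps18b at -0.040, Mrps22 at -0.062 and Mrps25 at -0.33. Without libraries 5 and 6, Mrps18b was at -0.072, Mrps2 at 0.12, Mrps22 at -0.15, Mrps27 at 0.092 and Mrps5 at 0.00077. With TMM scaling as well, Mrpl44 was at -0.19, Mrps18a at -0.022, Mrps18b at -0.28, Mrps18c at -0.0041, Mrps22 at -0.36 and Mrps30 at -0.16. With 1 library left out, Mrps5 ranged from -0.10 to 0.045, Mrpl19 from -0.25 to 0.077, Mrps2 from -0.57 to 0.19, Mrps22 from -0.26 to 0.26 and Mrps25 from -0.11 to 0.18. The cause was not tested. No paired analysis was possible because Gdpd3+/+ and Gdpd3-/- samples carry different numbers. With 3 libraries of each genotype, no single gene can go below an exact permutation p of 0.1, and all Gdpd3-/- libraries are shallower than all Gdpd3+/+ libraries, so depth and genotype cannot be told apart.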
